A study of Oncorhynchus mykiss with 24 samples.

Results

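Liver mRNA levels of wild-domesticated hybrid rainbow trout (W/D) were set against the midparent value, the mean of the levels in the domesticated (D) and age-matched wild (Wa) groups, with 6 fish in each group. These 18 fish are 18 of the 24 in the series, and they were taken by the source of the liver RNA that the labels give. The other 6 fish are size-matched wild trout of the previous year's brood (Ws). They entered the choice of tested oligos, the fit for their spread and, in one alternative, the contrast in place of Wa. D trout came from a commercial strain selected for growth, and Wa trout from a wild lake strain that grows slowly. According to the study's methods, W/D came from a single D female crossed with a W male, D from the same D female and a D male, and Wa from a W female and the same W male. W/D therefore shared a dam with D and a sire with Wa, the reciprocal cross was not analysed here, and the family and the strain cannot be told apart. The midparent value was measured in trout of the parental strains and not in the parents. All 3 groups were of one age and kept under the same conditions, but their body sizes differed. The methods state that families were reared separately, so that the rearing unit and the group cannot be told apart. The labels give 6 individuals per group, and each of the W/D, D and Wa groups is a single cross. The p-values measure the spread between fish within groups, Ws included, which the methods describe as coming from many crosses.

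The level of each mRNA was measured with a 44K salmonid oligo-array, on which the Cy5-labelled RNA of 1 fish was hybridised against a Cy3-labelled pool of 6 Ws fish. A level is given throughout as the log2 ratio of fish to pool, so that a step of 1 is a change of 2-fold. W/D, D and Wa fish with the same number shared a slide, with D, W/D and Wa always at the same positions, and position and group cannot be told apart. Median Cy5 signals ran between 206 and 233 on the W/D arrays, between 214 and 246 on the D arrays, and between 197 and 208.5 on the Wa arrays. Between 35.4 and 46.2% of the oligos were above the local background in W/D fish, against 33.6 to 44.4% in D and 38.5 to 42.7% in Wa. The number of arrays limits the precision, and the median standard error of a deviation from midparent was 0.21. The titles of D fish 4 and 6 carry the same fish code. Their ratios correlated with r = 0.617 across oligos, near the top of the range of 0.396 to 0.643 over all pairs of D fish. Only the pair of D fish 2 and 4 had a higher r. The median absolute difference of D fish 4 and 6 was 0.391, where the pairs ran from 0.354 to 0.433. They were kept as separate fish, which these values do not settle.

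An mRNA whose alleles act independently and add up is expected near the arithmetic mean of the parental levels in a first generation hybrid. The midparent value of the main test is a mean of log2 ratios, which lies below that mean where the parental groups differ. A call against it is therefore not by itself a departure from alleles that add up, and the arithmetic mean is taken up further below. A level at that of one parental strain is called dominant for that strain, and a level beyond both is called over- or under-dominant, or transgressive. The liver makes plasma proteins, takes up and releases nutrients, handles water and solutes in bile, and conjugates foreign compounds.

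Most tested mRNAs in W/D did not differ detectably from midparent. Of 8679 oligos with enough signal, 19 (0.219%) differed in limma's moderated test at an adjusted p of at most 0.05, with 13 higher in W/D (0.15%) and 6 lower (0.0691%). With Ws left out of the fit 37 were called, all of the 19 among them. The deviations of the 19 ranged in size from 0.79 to 2.77 on the log2 scale. At an unadjusted p of at most 0.05, 741 oligos (8.54%) deviated, 412 of them higher and 329 lower. For scale, 690 oligos (7.95%) differed between D and Wa under the same test, 89 (1.03%) between W/D and D and 108 (1.24%) between W/D and Wa. The median size of D minus Wa over these 690 was 0.96. A W/D level equal to that of D or Wa deviates from midparent by only 0.5 times D minus Wa. At that median it would be smaller than the smallest of the 19 deviations. The low count therefore does not show that the other oligos were at midparent. The median deviation over all tested oligos was 0.016. Names were available for 389 tested oligos, all of them spots that the study had listed as different between some pair of groups in these same fish, and 15 of the 19 had a name. The signal filter was passed through any 1 group, Ws included, with signal on all its arrays, and 14 of the 19 did not pass it in W/D, D and Wa together.

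**Figure D1:**
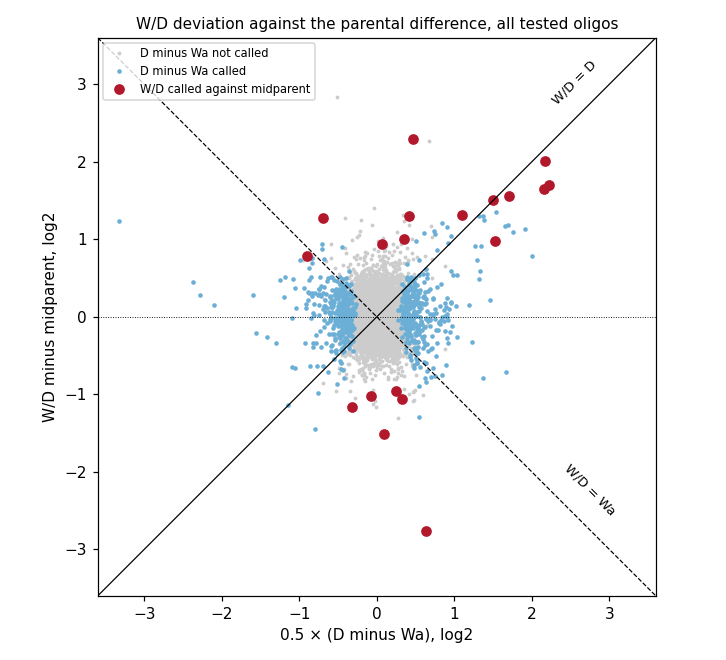
Deviation of W/D from midparent (vertical axis, log2) against 0.5 times the D minus Wa difference (horizontal axis, log2) for all 8679 tested oligos, with the 690 oligos called in D minus Wa in blue and the 19 called against midparent in red. On the solid diagonal W/D equals D, on the dashed diagonal it equals Wa, and 7 of the 8 red points called toward D lie at the upper right, at ratios between 0.65 and 1.2 of the vertical to the horizontal value, while C243R165, the eighth, has a ratio of 2.85.

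The 19 were split by whether D and Wa also differed past the threshold. In 10 of them D and Wa also differed, and W/D lay toward D in 8 and toward Wa in 2. All 8 of those toward D were higher in D than in Wa, and both toward Wa were lower in D, which is the side of the group with more mRNA. Several of these spots were near background in 1 parental group. With the signal filter on all 18 arrays 1 oligo was called toward D and 1 toward Wa, and with the filter on all 24 arrays 0 and 1. In the other 9, D and Wa did not differ past the threshold, and W/D was higher than midparent in 3 and lower in 6. The split does not order the oligos by the size of the parental difference. D minus Wa was 0.70 at C243R165 among the 10, against 0.93 at C265R053 and 1.28 at C110R167 among the 9.

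Solute carrier family 28 member 3, a transporter that concentrates nucleosides in the cell, was at the level of D in W/D liver. At spot C055R039 the W/D fish had 2.49, 3.32 and 3.76 (lowest, median and highest log2 ratio), against 2.81, 3.13 and 3.81 in D fish and -0.20, 0.11 and 0.86 in Wa fish. The W/D and D fish overlapped, and no Wa fish reached any of them. W/D was 1.51 ± 0.21 (SE) above midparent, a fold change of 2.85 (adjusted p = 0.000403). The difference of W/D from D was 0.01, with a 95% confidence interval of -0.49 to 0.50, and that from Wa was 3.02. The other spot of this name, C216R135, deviated by 1.55 ± 0.26 (adjusted p = 0.00322), with W/D fish at 2.47, 3.49 and 3.64, against 2.40, 3.40 and 4.26 in D and -0.76, 0.20 and 1.09 in Wa. In Wa these spots were above background on 1 and 2 of 6 arrays, so that the low end of the midparent rests on dim signal.

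Fucolectin-4 precursor, a fucose-binding lectin of fish serum, had the same pattern. W/D fish had 2.17, 2.53 and 3.34 at C224R024, against 1.95, 2.28 and 3.26 in D and -0.10, 0.29 and 0.47 in Wa. The lowest W/D fish lay far above the highest Wa fish. The deviation was 1.31 ± 0.19 (adjusted p = 0.00044), and W/D differed from D by 0.21 (95% confidence interval -0.23 to 0.66). Wa was above background on 1 of 6 arrays here. Of the 11 lectin spots tested, this was the 1 that was called, against 0.219% of all tested oligos and 15 of the 389 named ones. On the higher side of midparent were 8 of the 11, where 52.9% of all tested oligos lay. The median deviation was 0.18, against 0.016 over all tested oligos. In 10 of the 11 D and Wa differed past the threshold, against 7.95% of all tested oligos. The log2 midparent lies below the arithmetic mean where they differ, so that these shares and medians are not like for like.

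The spots named for the alpha subunit domain of transcription initiation factor IIF, which works with RNA polymerase II at promoters, also lay toward D. C256R062 had 0.55, 1.60 and 2.11 in W/D fish, against 1.03, 1.98 and 2.74 in D fish and -2.67, -2.46 and -2.33 in Wa fish. C182R143 had 0.43, 1.5 and 1.93 in W/D, against 1.23, 1.79 and 2.43 in D and -2.94, -2.46 and -2.20 in Wa. In both, W/D overlapped D and stood clear of Wa. W/D exceeded midparent by 1.70 ± 0.35 (adjusted p = 0.0258) and 1.65 ± 0.32 (adjusted p = 0.0161), on a difference of D minus Wa of 4.45 and 4.31. The 2 further spots of this name, C063R163 and C054R169, had deviations of 1.14 and 1.25 that were not called (adjusted p = 0.0988 and 0.137). Wa was above background on 4 of 6 arrays at C256R062, 5 at C182R143, 4 at C063R163 and 0 at C054R169. The low end of the midparent thus rests on dim signal here too. Such same-named spots are not independent mRNAs, since they may measure one transcript.

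A spot named for a microtubule-binding domain (MIP-T3, C169R119) and the delta chain of calcium/calmodulin-dependent protein kinase type II (C155R079), which phosphorylates proteins on calcium signals, completed the set toward D, together with the unnamed C243R165. C169R119 had values in 4 W/D fish, of 0.56, 1.54 and 2.06, against 0.72, 1.61 and 2.44 in D and -3.01, -2.77 and -2.42 in 5 Wa fish. It deviated by 2.01 ± 0.40 (adjusted p = 0.0191), and its second spot, C223R094, by 1.30 ± 0.30 (adjusted p = 0.0544). The kinase had 0.35, 1.10 and 1.70 in W/D, against 1.51, 1.51 and 1.77 in the 3 D fish with a value and -1.93, -1.46 and -0.86 in Wa. Its deviation was 0.98 ± 0.21 (adjusted p = 0.0315), and it was called in 11 of the 24 fits with fish left out. C243R165 had 1.41, 1.71 and 2.23 in W/D, against 0.72, 1.18 and 1.65 in D and 0.12, 0.44 and 1.06 in Wa, so that the W/D mean was above that of D. Its deviation was 1.00 ± 0.18 (adjusted p = 0.00387). The missing values carried a quality flag, and the fit used the remaining fish.

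Aquaporin-8, a water channel that hepatocytes place in the bile canaliculus, was at the level of Wa in W/D. W/D fish had -0.98, -0.75 and -0.65 at C218R007, against -2.79, -2.45 and -2.0 in D and -1.01, -0.66 and -0.39 in Wa. All 6 W/D fish lay within the range of Wa and above every D fish. The deviation was 0.79 ± 0.17 (adjusted p = 0.0333), and W/D differed from Wa by -0.10 (95% confidence interval -0.51 to 0.30). It was called in 7 of the 24 fits with fish left out. ATP-sensitive inward rectifier potassium channel 10, at C049R050, had -0.54, 0.02 and 0.24 in W/D, against -2.90, -2.32 and -0.39 in D and -1.51, -0.66 and 0.33 in Wa. Its W/D mean was above both parental means, with 1 D fish within the range of W/D. The deviation of 1.27 ± 0.28 (adjusted p = 0.034) was accompanied by a difference of 0.57 from Wa (95% confidence interval -0.08 to 1.23), and it was called in 8 of those 24 fits.

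Another 3 named mRNAs, called in W/D without a called difference between D and Wa, were higher than both parental means. Saxitoxin and tetrodotoxin-binding protein 2 precursor, named for a toxin-binding plasma protein of pufferfish, had -0.46, 0.20 and 1.22 in W/D at C265R053, against -2.05, -1.56 and -0.76 in D and -2.84, -2.49 and -1.95 in Wa. Every W/D fish was above every D and Wa fish. W/D was 2.30 ± 0.38 above midparent, or 4.92-fold (adjusted p = 0.00322), and was higher than D by 1.83 and higher than Wa by 2.76. Wa was above background here on 3 of 6 arrays. Catechol-O-methyltransferase domain-containing protein 1 (C177R069), an enzyme of the methyltransferase family, had -0.26, -0.02 and 0.11 in W/D, against -1.68, -1.0 and -0.37 in 5 D fish and -2.20, -1.94 and -1.21 in 3 Wa fish. The W/D fish stood clear of both groups, which overlapped each other, and the deviation was 1.30 ± 0.21 (adjusted p = 0.00322). The other spot of that name, C128R030, deviated by -0.15 ± 0.20, so that the 2 spots did not give the same picture. Histone H1.0, a linker histone of cells that have stopped dividing, had -0.37, 0.11 and 0.55 at C021R027 in W/D, against -1.41, -0.71 and -0.37 in D and -1.65, -0.83 and -0.34 in Wa. Only the lowest W/D fish fell within the range of another group, and it deviated by 0.94 ± 0.20 (adjusted p = 0.0264).

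**Figure D2:**
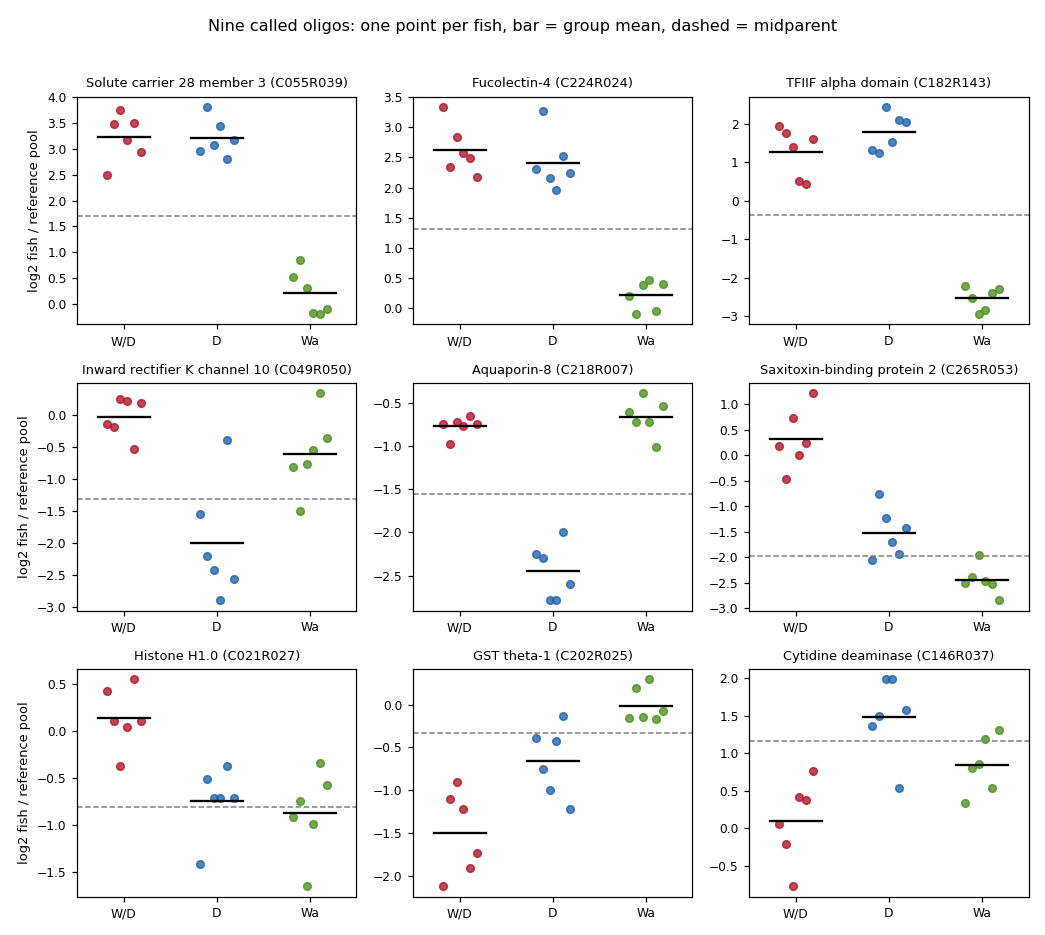
Log2 ratio of fish to reference pool (vertical axis) for 9 of the called oligos, with 1 point per fish for W/D, D and Wa from left to right, the group mean as a bar and the midparent value as a dashed line. W/D stood with D in the first 3 panels, at or above Wa in the next 2, and above both groups in the saxitoxin-binding protein panel. The W/D mean was above both parental means in the histone panel, with the lowest W/D fish among the others, and below both in the last 2.

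Glutathione S-transferase theta-1, which conjugates glutathione to foreign compounds, was lower in W/D than both parental means. At C202R025 the W/D fish had -2.13, -1.48 and -0.90, against -1.22, -0.59 and -0.13 in D and -0.17, -0.11 and 0.30 in Wa. W/D overlapped D at the edge and lay below every Wa fish. The level in W/D was 44.5% of midparent, a deviation of -1.17 ± 0.23 (adjusted p = 0.0161). The second spot of this name, C098R049, had -1.04 ± 0.26 (adjusted p = 0.0887).

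Cytidine deaminase, which turns cytidine into uridine for pyrimidine salvage, had -0.78, 0.21 and 0.76 in W/D at C146R037, against 0.54, 1.53 and 1.99 in D and 0.34, 0.83 and 1.31 in Wa. W/D overlapped both groups, and its deviation was -1.06 ± 0.23 (adjusted p = 0.0315), with a difference of -1.39 from D and -0.74 from Wa. It was called in 12 of the 24 fits with fish left out. Of the 9 spots of nucleoside and nucleotide metabolism, 2 were called higher, both for solute carrier family 28 member 3, and this 1 lower, against 0.15% higher and 0.0691% lower over all tested oligos. Of the 389 named oligos 15 were called in either direction, and the median deviation of the 9 spots was 0.04. Proteasome subunit alpha type-6, part of the ring of the core proteasome, had -1.48, -0.88 and -0.44 in W/D at C252R010, against -0.26, 0.21 and 0.68 in D and -0.64, -0.26 and 0.04 in Wa. All W/D fish were below all D fish, and they overlapped Wa. It deviated by -0.95 ± 0.19 (adjusted p = 0.0191), while its other spots had -0.67 and -0.13 and were not called. Of 7 proteasome and ubiquitin spots, this was the 1 called lower, against 0.0691% of all tested oligos and, in either direction, 15 of the 389 named ones. The median of the 7 was -0.18, with 5 below midparent and 2 above. The 2 above, C174R002 and C190R079, both carry the name ubiquitin-conjugating enzyme E2 C and are also counted under cell cycle and mitosis.

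The remaining 3 oligos called lower had no name. C110R167 had -3.90, -3.0 and -2.72 in W/D, against -0.46, 0.31 and 0.83 in D and -2.56, -0.89 and -0.02 in Wa. All W/D fish were below all others, and the deviation of -2.77 ± 0.46 (adjusted p = 0.00322) was the largest of the 19. It was above background on 2 of 6 arrays in W/D. C223R065 had -0.65, -0.21 and -0.08 in W/D, against 0.24, 0.67 and 1.03 in D and 0.12, 0.62 and 1.95 in Wa, again with no overlap, and deviated by -1.03 ± 0.23 (adjusted p = 0.0367), with a call in 7 of the 24 fits with fish left out. C179R087 had -1.82, -1.28 and -0.65 in W/D, against -1.90, 0.86 and 1.49 in D and -0.41, 0.12 and 0.85 in Wa, where 1 D fish lay as low as W/D. Its deviation was -1.51 ± 0.32 (adjusted p = 0.0315), and it was called in 10 of the 24 fits with fish left out.

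Further named mRNAs with the smallest p-values on the lower side did not pass the threshold. Translationally-controlled tumor protein, a growth-related protein, had -0.86 ± 0.20 at C066R160 (adjusted p = 0.0544), and all 8 of its spots lay between -0.86 and -0.59. Glutathione transferase omega-1 had -0.94 ± 0.22 at C241R147 (adjusted p = 0.0682), and its 6 spots lay between -1.09 and -0.60. Sarcomeric actin had -1.08 ± 0.27 at C185R005 (adjusted p = 0.0951), and its 6 spots lay between -1.08 and -0.55. All spots of these 3 names thus had W/D below midparent, none of them called. Tripartite motif-containing protein 16 (C163R098) had -1.45 ± 0.35, type-4 ice-structuring protein LS-12 precursor (C132R074) -1.29 ± 0.32, cytotoxic and regulatory T-cell molecule (C217R051) -1.09 ± 0.26 and carbonyl reductase [NADPH] 1 (C046R165) -0.63 ± 0.17, with adjusted p between 0.0708 and 0.13. The ice-structuring protein had a value in 3 W/D fish, 3 D fish and 5 Wa fish.

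The comparison depends on the scale on which the midparent is taken. A mean of log2 values lies below the log2 of a mean, and the gap grows with the parental difference. Alleles that add up are expected at the log2 of the arithmetic mean, here called the linear midparent. Against the log2 of the arithmetic mean of D and Wa, 16 oligos were called, 5 higher and 11 lower, and 11 of them were among the 19. Of the 8 oligos toward D, 2 were still called, fucolectin-4 precursor (0.93 ± 0.20, adjusted p = 0.0429) and C243R165 (0.96 ± 0.18, adjusted p = 0.014). The deviation was 0.84 ± 0.23 at C055R039 and 0.72 ± 0.29 at C216R135 for solute carrier family 28 member 3 (adjusted p = 0.166 and 0.506). It was 0.41 and 0.42 for the called spots of transcription initiation factor IIF (adjusted p = 0.875 and 0.845), 0.77 for C169R119 and 0.30 for the kinase (adjusted p = 0.68 and 0.845). Neither mRNA toward Wa was called, with 0.53 for aquaporin-8 and 1.11 for the potassium channel (adjusted p = 0.309 and 0.129). The 9 oligos without a called parental difference were called on both scales. The 5 called on the linear scale alone all had W/D below the linear midparent, and they are named here after their values were seen. They were translationally-controlled tumor protein (C066R160, -0.96), tripartite motif-containing protein 16 (C163R098, -1.66), serine protease 27 precursor (C092R028, -1.03), a probable polypeptide N-acetylgalactosaminyltransferase (C224R132, -1.37) and the unnamed C039R070 (-1.56). In all 5 the W/D mean lay toward or beyond the parental group with less mRNA. At C039R070 it was -0.65, against -0.66 in D and 1.64 in Wa, and at C224R132 0.76, against 2.93 and 0.18. At C092R028 it was -2.13, against -2.57 and -0.39. It was below both parental means at C066R160 (-1.04, -0.69 and 0.34 in W/D, D and Wa) and C163R098 (-0.14, 0.50 and 2.10).

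**Figure D3:**
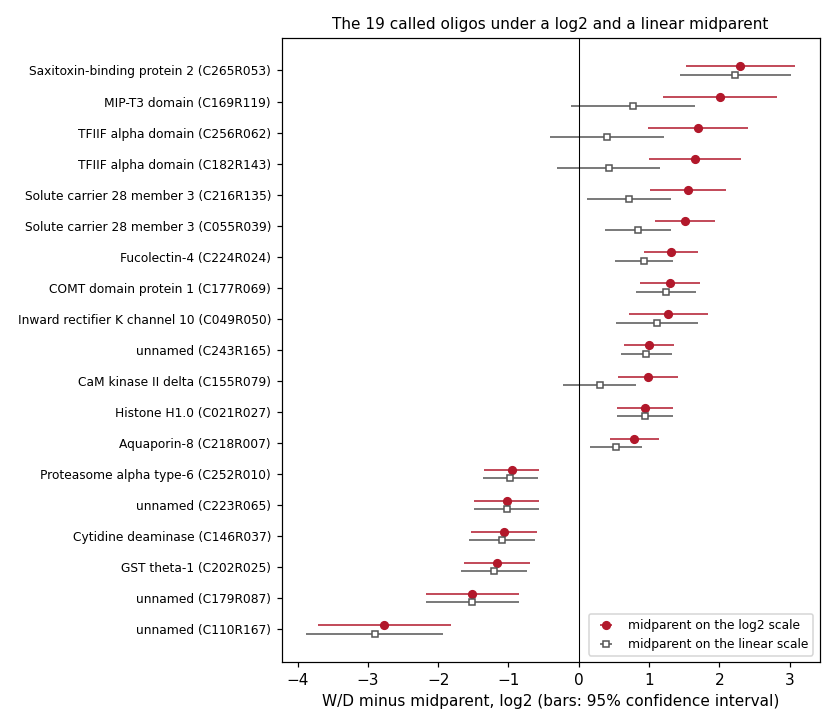
Deviation of W/D from midparent (horizontal axis, log2, with 95% confidence intervals) for the 19 called oligos, against a midparent taken on the log2 scale (filled circles) and on the linear scale (open squares). The intervals of the transcription factor IIF spots, C169R119 and the kinase reach 0 on the linear scale, while the oligos without a called parental difference keep nearly the same value on both scales.

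No oligo passed the test for a level outside both parental groups. That test takes the larger of the p-values of W/D against D and W/D against Wa, where both differences have the same sign, and 0 of 8679 oligos (0%) passed an adjusted p of 0.05 in limma, while 127 (1.46%) had an unadjusted p of at most 0.05, with 77 above and 50 below. The same number, 0, passed in least squares without moderation, with 132 at an unadjusted p of at most 0.05. The smallest p-value in that test was that of saxitoxin and tetrodotoxin-binding protein 2 precursor (C265R053), with an adjusted p of 1. The W/D mean lay outside both parental means in 13 of the 19 oligos called against midparent, above in 7 and below in 6, so that most of them are away from midparent without an established place beyond both groups. With each comparison of the main fit adjusted on its own, W/D was called against both D and Wa in 2 of the 19. These were C265R053 (limma adjusted p = 0.0315 against D and 0.000263 against Wa) and C110R167 (0.000607 and 0.0384). Over 7334 oligos with a value in all 18 fish, every W/D fish was above or below every D and Wa fish in 4 (0.0545%), C265R053 and C231R024 above and C110R167 and C223R065 below. C231R024 deviated by 0.98 and was not called (adjusted p = 0.1). When the fit held W/D, D and Wa alone, C265R053 and C110R167 passed the test for a level outside both (adjusted p = 0.00122 and 0.00157).

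Among the 690 oligos that differed between D and Wa, W/D was on average close to the middle. The ratio of the W/D deviation to 0.5 times the parental difference is 0 at midparent, 1 at the level of D and -1 at the level of Wa. Its median was -0.03, with quartiles of -0.37 and 0.44, and 398 oligos (57.7%) lay between -0.5 and 0.5. W/D was nearer to D, between 0.5 and 1, in 117 (17%) and nearer to Wa in 99 (14.3%), and it lay beyond D in 40 and beyond Wa in 36. The 334 oligos higher in D had a median ratio of 0.13, and the 356 lower in D one of -0.11, so that in both sets the median W/D level was on the side of the group with more mRNA. The median deviation was 0.07 in the set higher in D and 0.06 in the set lower in D. Against the linear midparent it was -0.05 and -0.03. The ratio has a large error where the parental difference is small, and it is given as a description.

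**Figure D4:**
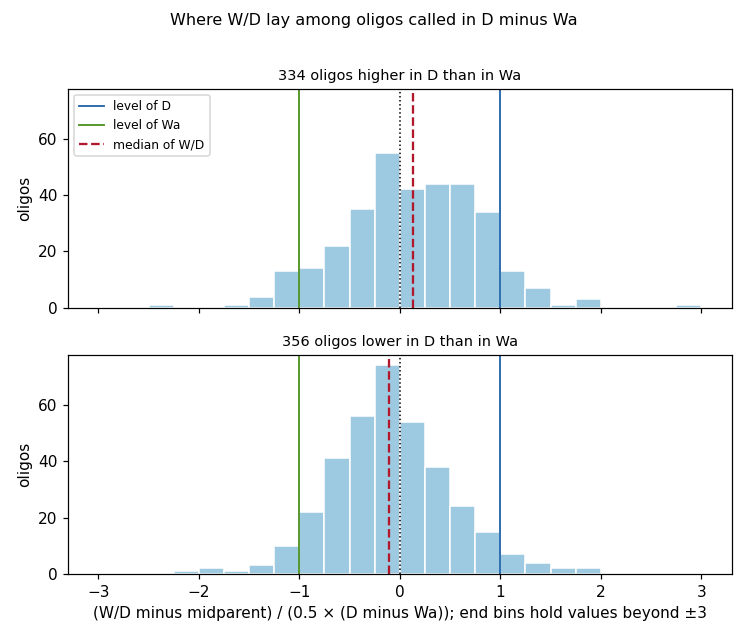
Number of oligos (vertical axis) by the ratio of the W/D deviation to 0.5 times D minus Wa (horizontal axis), for the 334 oligos higher in D (top) and the 356 lower in D (bottom) among those called in D minus Wa. The dashed line at the W/D median stands at 0.13 in the upper panel and at -0.11 in the lower, each between the lines for the levels of D (1) and Wa (-1).

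With the parental difference at least 2 on the log2 scale, 47 oligos remained, 29 of them higher in D, and W/D was above midparent in 36 with a median deviation of 0.49. On the linear scale W/D was above midparent in 23 of these 47, with a median of -0.0020. The 3 named oligos with the largest excess in D that were not called against midparent were GDP-L-fucose synthetase, which makes the donor of fucose, transcription initiation factor IIF alpha (C063R163) and leukocyte cell-derived chemotaxin 2 precursor. GDP-L-fucose synthetase (C015R047) had 2.61, 2.90 and 3.33 in 4 W/D fish, against 3.90, 4.05 and 4.57 in 5 D fish and -0.63, 0.29 and 1.04 in 5 Wa fish, with W/D between both groups and clear of each. Its deviation was 0.78 ± 0.28 (adjusted p = 0.358). The chemotaxin (C164R142) deviated by 1.10 ± 0.54 (adjusted p = 0.588), with W/D fish spread over -1.59 to 1.78.

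The position was also taken for each W/D fish, as the slope of its deviation on 0.5 times D minus Wa over the 690 oligos. The 6 W/D fish lay at -0.06, 0.01, 0.06, 0.13, 0.15 and 0.28, with a mean of 0.10 ± 0.12 (SD, n = 6), where 1 is D and -1 is Wa. On this pooled slope all 6 were thus nearer to the middle than to either parental group. Over the oligos higher in D the fish had positions between 0.05 and 0.43, and over those lower in D between -0.45 and 0.21. W/D fish 3, at -0.06 on the pooled slope, had 0.27 and -0.45 in these sets, so that the pooled slope can average opposite shifts.

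Lipocalins, small carriers of lipophilic molecules, included the named mRNAs furthest below Wa in D. At most of their spots, though not at C176R044, W/D fish differed widely among themselves. Lipocalin precursor at C106R052 had 1.92, 0.03, 3.98, 2.16, -1.36 and -0.24 in W/D fish 1 to 6, against -4.49, -3.84 and -1.44 in D and 1.49, 3.27 and 4.31 in Wa. W/D fish 1, 3 and 4 lay within the range of Wa, and fish 2, 5 and 6 lay between both groups. Chondrogenesis associated lipocalin at C159R067 had 1.99, -0.13, 5.24, 1.91, -0.79 and -0.09 in W/D fish 1 to 6, against -2.16, -1.82 and -0.27 in D and 1.5, 3.45 and 4.32 in Wa, with the same 3 W/D fish high. Its other spots, C062R003 and C069R130, had standard deviations of 1.76 and 2.02 in W/D, against 0.79 and 0.71 in D and 0.98 and 0.85 in Wa. Over all tested oligos the median standard deviation was 0.39 in W/D, against 0.38 in D and 0.38 in Wa. None of the 5 lipocalin spots was called against midparent, and their median deviation was 0.29, with the lowest at -0.27 (C176R044). C176R044, also named lipocalin precursor, had standard deviations of 0.185 in W/D, 0.219 in D and 0.183 in Wa. Its D minus Wa difference was -0.83, against -6.65 at C106R052. C106R052 was above background on 3 of 6 D arrays and on all W/D and Wa arrays. UDP-glucuronosyltransferase 2A1 precursor (C041R060), which conjugates glucuronic acid, was the third named mRNA lower in D. It had -1.90, -1.38 and 0.51 in W/D, against -3.43, -3.01 and -2.50 in 4 D fish and -0.40, 0.14 and 0.79 in Wa, and deviated by 0.28 ± 0.29 (adjusted p = 0.878).

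Groups of named mRNAs were described by their counts, since their members were all listed by the study for differences among these fish and are not independent evidence of a direction. Over all tested oligos 52.9% lay above midparent and 47.1% below, 0.15% were called higher and 0.0691% lower, and the median was 0.016. D minus Wa was called in 7.95% of all tested oligos, against 24 of 35 spots of glutathione and peroxide metabolism and all 6 of complement. It was called in 4 of 6 cell cycle and 3 of 6 cytochrome P450 and glucuronidation spots. Where D and Wa differ the log2 midparent lies below the arithmetic mean, so that counts above it are not like for like with these shares. Same-named spots may measure one transcript, so that a count of spots is not a count of mRNAs. Glutathione and peroxide metabolism had 35 tested spots, of which 25 lay below midparent and 10 above, with 1 called lower and none higher and a median of -0.12. Many of these 35 carry the name superoxide dismutase [Cu-Zn], and 6 that of glutathione transferase omega-1. All 6 spots of cell cycle and mitosis lay above midparent, with a median of 0.81, and none was called. Among them C174R002 and C190R079 share the name ubiquitin-conjugating enzyme E2 C and are also in the proteasome and ubiquitin group. In that group G1/S-specific cyclin-E1 (C147R058), which drives entry into S phase, had 0.91 ± 0.25 (adjusted p = 0.129), and protein regulator of cytokinesis 1 (C162R130) had 0.93 ± 0.27 (adjusted p = 0.164), with no D array above background for the second. The 6 spots listed under cytochrome P450 and glucuronidation were also all above, with a median of 0.67. Of these, 2 carry the name epoxide hydrolase 2, which is neither a cytochrome P450 nor a glucuronosyltransferase name. The spots given for their p-values were epoxide hydrolase 2 (C099R107, 0.98 ± 0.28, adjusted p = 0.158) and cytochrome P450 3A27 (C018R009, 0.59 ± 0.22, adjusted p = 0.385). The 6 complement spots, 3 of them for complement C3-1, were above as well, with a median of 0.27. Complement C3-1 at C138R093 and C097R144 had 0.92 and 0.73 (adjusted p = 0.245 and 0.703). Against the linear midparent these spots had 0.42 and 0.22, while C147R058 had 0.91, C162R130 0.77, C099R107 0.89 and C018R009 0.57. None of these was called.

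The remaining groups held no called oligo. The respiratory chain and ATP synthase had 10 of 12 spots above midparent and a median of 0.18, with cytochrome c oxidase subunit 4 isoform 2 at -0.77 (C044R125, adjusted p = 0.46) and a NADH dehydrogenase subunit at -0.69 (C021R085, adjusted p = 0.216). Endoplasmic reticulum chaperones had 8 of 10 above and a median of 0.15, with endoplasmin precursor at 0.52 and 0.37 (C018R051 and C129R078). Cytosolic ribosomal proteins had 7 of 10 above and a median of 0.12, with 60S ribosomal protein L9 at 0.69 (C170R018) and 40S ribosomal protein S27 at -0.61 (C051R157). Fatty acid and sterol synthesis had 1 of 4 above and a median of -0.19, with NADP-dependent malic enzyme at -0.61 (C144R062) and 7-dehydrocholesterol reductase at 0.45 (C119R039). Lipid transport had 2 of 4 above, with acyl-CoA-binding protein at 0.48 (C209R038) and apolipoprotein Eb precursor at 0.22 (C084R124). Amino acid metabolism had 3 of 8 above and a median of -0.07, with serine-pyruvate aminotransferase at -0.53 (C188R157) and an alanine-glyoxylate aminotransferase at -0.47 (C047R153). The 6 transposon-derived spots had a median of 0.23, with Tc1 transposase at 1.05 and 0.86 (C128R041 and C086R032). Insulin-like growth factor-binding protein spots lay at -0.09 (C076R050) and 0.05 (C242R049), and heat shock cognate 70 kDa protein (C194R002) at 0.10.

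Marker mRNAs of liver and of other cell types gave no call against midparent. Of the 3 hepatocyte markers tested, serum albumin 2 precursor (C121R131) lay 0.40 ± 0.28 and fibrinogen beta chain precursor (C070R128) 0.30 ± 0.31 from midparent. Both were above background on every array of W/D, D and Wa, though fibrinogen had a value in only 5 D and 4 Wa fish. The third, apolipoprotein A-I-2 precursor (C205R096), lay below midparent, at -0.04. The 20 erythrocyte spots had a median deviation of -0.07, 6 above and 14 below, and their mean level was between -0.14 and 0.71 in W/D fish, between 0.04 and 2.07 in D and between -0.34 and 0.19 in Wa. Hemoglobin subunit alpha-D (C062R154) had -0.64 ± 0.28 and hemoglobin subunit beta-1 (C235R126) 0.42 ± 0.23 (adjusted p = 0.54 and 0.655), the smallest p-values of that list. C235R126 had a value in only 3 D fish. Of the 6 spots named hemoglobin subunit beta-1 it was the 1 above midparent, with 5 below and the lowest at -0.17. The part of blood in the results above was not tested. The 2 immunoglobulin spots with the smallest p, both Ig lambda chain C region (C113R056 and C025R106), had 0.11 and -0.07. Tropomyosin alpha-4 chain (C040R108) had -0.73 ± 0.22, a trypsinogen-like protein (C207R122) 0.19 ± 0.24, and a zona pellucida sperm-binding protein (C230R165) -0.71 ± 0.44, with adjusted p of 0.216, 0.914 and 0.727. The tropomyosin was the 1 spot tested for skeletal muscle, and it is not particular to that tissue. Sarcomeric actin was outside the marker lists, and its 6 spots lay between -1.08 and -0.55, none called. The part of muscle in the samples was not tested. In these bulk samples fewer cells of a type and less RNA per cell cannot be told apart.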

How the data were processed

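Liver RNA of 24 trout was measured on 24 two-colour arrays, with 1 fish (Cy5) and the common pool (Cy3) on each and no dye swap. The authors deposited the unnormalized ImaGene spot intensity values, with mean signal, local background and flag of 45220 spots in both channels, and also log2 ratios after LOWESS normalisation and centring on each oligo's median, which served as an alternative (r with the rebuilt ratios 0.858 to 0.926 per array, across oligos). The flag values, a column of other kind deposited by the authors, are not defined in the sources used here.

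In R 4.3.3 with limma 3.58.1, intensities were corrected by normexp (offset 50) on the background median and normalised by loess within each array, with 1531 control spots and spots of flag 3 at weight 0 and flag 3 set to missing. Saturated spots carried that flag, but so did others. The missing values at C169R119, C155R079, C177R069 and C132R074 were not at spots saturated in Cy5. The filter asked for an unflagged Cy5 signal of 300 or more on each of the 6 arrays of any 1 of the 4 groups, Ws included. It kept 8683 of 43689 oligos, and 8679 of them had a value in each of the 4 groups and were tested. The two-sided moderated test of limma was fitted over the 4 groups with the contrast W/D minus the mean of D and Wa, and p-values were adjusted by Benjamini-Hochberg over the 8679 oligos. A call means an adjusted p no higher than 0.05. The larger of 2 p-values served for levels outside both groups. A spot was above background when its Cy5 signal exceeded the mean background by 2 standard deviations. The script was tested on simulated data. Plots were made in matplotlib 3.10.9 under Python 3.11.15.

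Named mRNAs were, in each direction, the 10 described called oligos with the largest deviation, the 3 largest of any kind, described oligos of smallest p where fewer than 10 were called, the 3 largest differences of D and Wa not called against midparent, and for each list its called spots or the 2 of smallest p. All 19 called oligos are given. Names come from the study's listed spots, 486 in all, and list patterns were matched to them. The comparison, the lists and the rules were chosen with earlier results of these data known. Descriptions of other oligos and oligo sequences were not used here.

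Fish of the same number shared a slide, as the series' design text states. With group means subtracted, same-slide fish correlated with r of -0.143 to 0.201 over all group pairs. The slide as a block was an alternative, as were background, normalisation, filter, flags, scale of the midparent, Ws for Wa, thresholds and fish left out.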

Additional observations from a re-analysis of the deposited data

Results flagged for a closer look

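In 82 sets of 6 fish (in W/D, D or Wa, for 32 oligos that were called or named for their p-value or parental difference, where all fish had a value), 5 held a fish that stood apart from the other 5 by Dixon's criterion, and chance alone flags about 1 set in 20. Of these sets, 3 belong to oligos called against midparent. W/D fish 4 had 2.47 at C216R135 (solute carrier family 28 member 3), below the next W/D fish at 3.24. W/D fish 2 had -0.98 at aquaporin-8 (C218R007), against -0.77 in the nearest W/D fish, a small gap within a tight group. D fish 1 had -1.41 at histone H1.0 (C021R027), against -0.71 in the nearest D fish. The other 2 sets were not called against midparent. D fish 5 had -0.064 at leukocyte cell-derived chemotaxin 2 precursor (C164R142), against 1.14 in the nearest D fish. Wa fish 3 had 1.5 at chondrogenesis associated lipocalin (C159R067), against 3.41 in the nearest Wa fish.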

How the results depend on the processing

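The 19 calls against midparent fell to 5 and 4 when the signal filter had to be passed on all 18 or all 24 arrays, which removed 14 and 15 of the 19 from testing, to 12 with the deposited log2 ratios, to 6 in least squares without moderation and to 7 at an adjusted p of 0.01. They numbered 37 when the 18 arrays were fitted alone, 57 with Ws in place of Wa (median position of the W/D fish 0.25, 11 calls shared) and 45 at an adjusted p of 0.1. Levels outside both groups had 2 calls in the fit of 18 arrays (C265R053 and C110R167) and 2 without the signal filter. The latter were other oligos, the unnamed C195R007 and C146R094. The calls for D minus Wa, 690 here, were 329 and 293 under the stricter filters, 269 and 1070 at the other thresholds, and 311 with a difference of at least 1. Leaving out D fish 4 and 6, an alternative chosen after seeing the data, gave 12 and 386, and averaging them gave 14 against midparent. With the slide as a replicate block 26 oligos were called, 18 of them shared, and 19 of the 26 were higher.

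The share called higher, 68.4% here, was 83.3% with median centring (24 calls, with the median of all oligos moved by 0.079), 55% from Cy5 alone (20 calls), 58.3% without background correction, 44.4% without the signal filter, 55.6% with flags disregarded, and 31.2% against the linear midparent.

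With fish left out, calls against midparent ranged from 7 to 27, those outside both groups stayed at 0, those for D minus Wa ranged from 387 to 719, and the median position of the W/D fish from -0.0010 to 0.19. Calls fell to 7, 8 and 12 without W/D fish 1, 2 or 6, to 12 without Wa fish 4, and to 8, 11 and 10 without all fish numbered 1, 2 or 6, where the 690 became 388 without fish 2 and 387 without fish 6. Both spots of solute carrier family 28 member 3, fucolectin-4 precursor, saxitoxin and tetrodotoxin-binding protein 2 precursor and C110R167 were called in all 24 of these fits, the other 14 in fewer, with aquaporin-8 and C223R065 in 7, the potassium channel in 8, C179R087 in 10, the kinase C155R079 in 11 and cytidine deaminase in 12. None of the 19 changed direction in any alternative. Among the oligos not called, C041R060 turned to -0.069 with the deposited ratios, and C015R047, C106R052, C159R067 and C041R060 to -0.31, -1.10, -0.98 and -0.47 on the linear scale. Without fish, C159R067 ranged from -0.55 to 0.96 and C041R060 from -0.053 to 0.49. Unless the alternative's construction shows it, the cause was not tested. Dim signal limits the midparent where 1 group is near background.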

Other observations

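Further named mRNAs were above midparent in W/D without passing the threshold, and they are given here after their values were seen. Lysozyme C II precursor, an enzyme that cleaves bacterial cell walls, had mean levels of 1.37 in W/D, 1.39 in D and -1.24 in Wa at C172R005, with a deviation of 1.29 ± 0.31 (adjusted p = 0.0708). Its other spots, C099R149 and C173R105, had 1.35 and 1.18 (adjusted p = 0.0887 and 0.13), so that the mean of W/D was close to that of D at C172R005 and C099R149 and lower at C173R105. Fucolectin-6 precursor (C220R118) had 1.88 in W/D, 2.30 in D and -0.38 in Wa, with a deviation of 0.92 ± 0.22 (adjusted p = 0.0784). Eukaryotic translation initiation factor 3 subunit I, part of the complex that loads ribosomes on mRNA, had 1.31 in W/D, 0.82 in D and -0.38 in Wa at C011R136 (deviation 1.09 ± 0.25, adjusted p = 0.0563), and its spots C065R011 and C030R108 deviated by 1.19 and 0.95. At each of the 3 spots the W/D mean was above both parental means. Heme oxygenase (C185R057), which breaks down heme, had 0.84 in W/D, -1.12 in D and 0.25 in Wa, with a deviation of 1.27 ± 0.32 (adjusted p = 0.0843). Its W/D mean was above both parental means and nearer to that of Wa.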
